A study of Mus musculus with 16 samples.

Results

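The 42 genes described here encode the vacuolar proton pump and proteins of the lysosome. They were taken from a list of 42 genes by keeping those with a raw count of at least 10 in 4 or more libraries of a table of 16934 genes. All 42 met this minimum and all 42 were among the 13139 genes tested. The proton pump is represented by 17 genes, of which 6 encode subunits of its membrane sector V0, 9 encode subunits of its cytosolic sector V1 and 2 encode accessory proteins. The other 25 genes encode lysosomal membrane proteins, enzymes and cofactors, together with progranulin (Grn) and the transcription factor Tfeb. The study, whose title concerns microglia that help neurons through tunneling nanotubes, sequenced RNA from mouse cortical neurons by 3′ mRNA sequencing. The neurons came from C57BL/6 embryos at embryonic day 15 to 16 and were kept in culture for 14 days. The 4 groups of 4 libraries were untreated neurons alone, neurons alone given α-synuclein fibrils that carried the dye Atto488 at 0.1 µM for 16 h, untreated neurons kept for 6 h with microglia, and fibril-loaded neurons kept for 6 h with microglia. The labels do not say how the neurons were parted from the microglia before RNA was taken, nor whether the 4 libraries of a group came from separate cultures, so a p-value measures the spread between libraries, which may be technical.

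The vacuolar proton pump is a rotary machine that spends ATP to move protons into lysosomes, endosomes and synaptic vesicles. Its V1 sector, with the ATP-splitting A and B subunits, turns a central stalk, and its V0 sector, with a ring of c subunits beside the a subunit, carries the protons across the membrane. The acid interior that results lets cathepsins and other hydrolases digest protein, sugar chains and lipids, and in neurons the same pump also powers the filling of synaptic vesicles with transmitter. Several subunits exist as isoforms, and G2 and e2 are the isoforms known to be rich in the nervous system. Many lysosomal and pump genes carry an E-box of the letters CACGTG near their start site, in the longer setting known as the CLEAR element, to which TFEB and related factors bind.

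RefSeq promoters of build GRCm38.p6, each covering 250 bases before to 50 bases after a start site, were matched to 35 of the 42 genes. The 7 genes with no entry were Atp6v1b2, Atp6v1c1, Atp6v1g1, Atp6v1h, Npc1, Ctsb and Asah1. The 6-letter word CACGTG, which reads the same on both strands, was found in 13 of the 35 genes (37.1%), against 10.9% of 13316 genes of the count table and 8.09% of 27025 genes of the whole promoter table. The longer TCACGTGA, which contains the first word, was found in 7 of the 35 (20%), against 1.91% of the count table and 1.12% of the whole promoter table. The longest form, GTCACGTGAC, which contains both, was found in Cln3 alone among the 35 genes, against 0.653% of the count table. Of the pump genes with a promoter entry, 4 of 13 held the 6-letter word (Atp6v0b, Atp6v0d1, Atp6v0e and Atp6v1a), and of the lysosomal genes 9 of 22 did (Lamp1, Mcoln1, Cln3, Ctsa, Ctsd, Ctsf, Ctsl, Gaa and Glb1). A match is a description of these letters and not a measured site. The 6 sequences below are the promoters of a V1 and a V0 subunit that fell with microglia (Atp6v1a and Atp6v0c), of the V0 subunit whose change had the opposite sign (Atp6v0e), of 2 lysosomal genes followed under fibrils (Ctsd and Lamp1) and of the one gene with the longest form (Cln3). Each runs 5′ to 3′ on the strand of the gene, and capitals mark the E-box, or its longer form where that is present. Atp6v1a lies at chr16:44139210-44139509 on the minus strand, Atp6v0c (the first of its 3 windows) at chr17:24169629-24169928 on the minus strand, Atp6v0e at chr17:26676146-26676445 on the plus strand, Ctsd at chr7:142387778-142388077 on the minus strand, Lamp1 at chr8:13158911-13159210 on the plus strand and Cln3 (the second of its 2 windows) at chr7:126583187-126583486 on the minus strand.
Atp6v1a: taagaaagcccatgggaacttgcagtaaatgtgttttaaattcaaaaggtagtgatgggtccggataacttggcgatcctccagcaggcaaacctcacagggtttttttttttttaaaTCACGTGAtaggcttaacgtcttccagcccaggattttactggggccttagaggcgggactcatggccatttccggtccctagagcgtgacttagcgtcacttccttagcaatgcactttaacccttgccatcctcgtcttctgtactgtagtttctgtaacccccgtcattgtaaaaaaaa
Atp6v0c: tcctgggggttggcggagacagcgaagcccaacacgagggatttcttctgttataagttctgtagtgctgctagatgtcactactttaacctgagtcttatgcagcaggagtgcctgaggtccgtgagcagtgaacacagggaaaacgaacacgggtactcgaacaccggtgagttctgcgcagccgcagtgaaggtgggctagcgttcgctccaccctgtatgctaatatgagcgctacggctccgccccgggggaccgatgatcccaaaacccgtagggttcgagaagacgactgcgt
Atp6v0e: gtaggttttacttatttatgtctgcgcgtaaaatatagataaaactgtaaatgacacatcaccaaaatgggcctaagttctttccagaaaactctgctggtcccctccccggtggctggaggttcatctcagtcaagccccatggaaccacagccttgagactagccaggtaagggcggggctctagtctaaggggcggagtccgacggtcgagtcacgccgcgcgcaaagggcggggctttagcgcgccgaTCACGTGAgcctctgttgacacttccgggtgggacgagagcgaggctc
Ctsd: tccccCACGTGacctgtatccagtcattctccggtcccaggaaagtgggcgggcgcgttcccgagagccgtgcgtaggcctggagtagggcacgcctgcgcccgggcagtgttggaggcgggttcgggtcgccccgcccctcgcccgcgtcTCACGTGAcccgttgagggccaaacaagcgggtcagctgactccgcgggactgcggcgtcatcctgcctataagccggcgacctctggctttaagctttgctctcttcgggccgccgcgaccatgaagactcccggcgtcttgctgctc
Lamp1: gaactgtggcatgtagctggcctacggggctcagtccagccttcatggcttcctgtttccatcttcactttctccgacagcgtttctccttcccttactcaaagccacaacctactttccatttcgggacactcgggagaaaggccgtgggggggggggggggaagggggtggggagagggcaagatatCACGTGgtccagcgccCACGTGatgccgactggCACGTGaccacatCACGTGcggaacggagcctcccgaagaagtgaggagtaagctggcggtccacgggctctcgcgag
Cln3: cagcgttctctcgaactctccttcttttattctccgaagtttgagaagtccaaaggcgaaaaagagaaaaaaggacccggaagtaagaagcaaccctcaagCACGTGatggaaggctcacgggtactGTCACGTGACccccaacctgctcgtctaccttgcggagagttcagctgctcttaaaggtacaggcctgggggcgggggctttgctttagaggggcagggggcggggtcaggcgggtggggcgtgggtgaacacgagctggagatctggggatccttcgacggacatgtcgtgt
Lamp1 held 4 copies of the 6-letter word within a short stretch, Ctsd and Cln3 held 2 each, and Atp6v1a and Atp6v0e held 1 each.

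**Figure D1:**
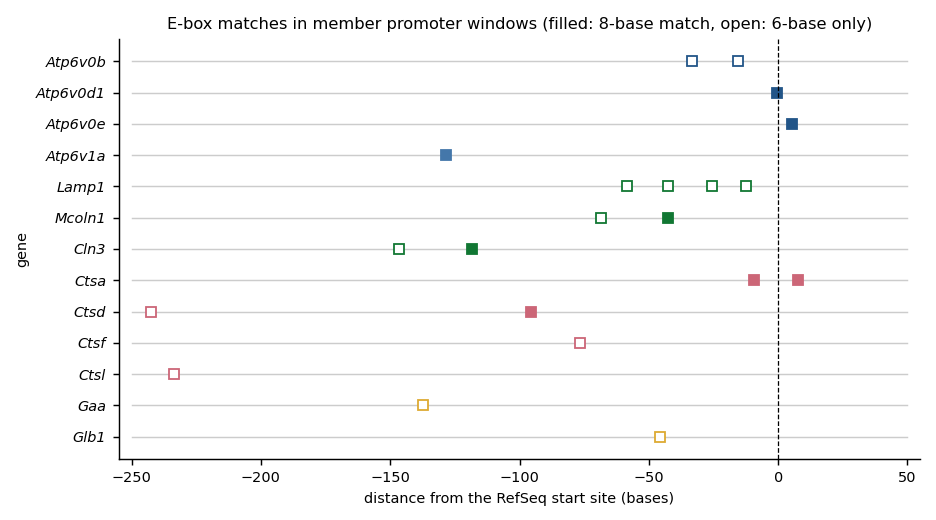
Positions of CACGTG in the promoters of the 13 genes that held it. The horizontal axis is the distance in bases from the start site, each row is a gene, and each square is the middle of a match in any of that gene's windows, filled where the match lies in the 8-letter TCACGTGA. Lamp1 has 4 squares, more than any other gene of the 13.

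Libraries held 6511516 to 13986374 counts, of which the 42 genes took 0.520% to 1.16%. A share of 9.35% to 26.8% of the counts fell on the ribosomal RNA gene Rn45s. Levels are given as CPM, a gene's count as a share of its library's total scaled with TMM factors. Each 3′ end gives 1 tag, so CPM does not grow with gene length. Libraries of one group differed widely, with correlations of log2 CPM between 0.645 and 0.757, and the biological coefficient of variation was 1.17. The labelled cell type was checked with summed levels of marker genes. The 12 neuronal markers, led by Map2, Syt1 and Stmn2, summed to 3208 to 7523 CPM in untreated neurons alone, 1539 to 7562 in loaded neurons alone, 1189 to 3005 in untreated co-cultures and 1325 to 2089 in loaded co-cultures, and none was at 0 in all 16 libraries. Microglial markers summed to 4.92 to 50.4 CPM in the 8 libraries of neurons alone. In the co-cultures they reached 681 CPM in the untreated replicate 1 and 1353 CPM in the loaded replicate 1, while the other 6 co-cultures held 11.4 to 74.7 CPM. Of the 14 microglial markers, P2ry12 and Tmem119 had no count in any library and Fcrls none in those 6. Markers of astrocytes, led by Slc1a2, Aldoc and Slc1a3, summed to 2403 to 7838 CPM alone and 997 to 6753 CPM in co-culture, and those of the oligodendrocyte lineage, led by Olig1, Gpr17 and Olig2, to 1093 to 3026 and 4009 to 9714 CPM. The RNA was thus not from neurons only, and in such bulk samples fewer cells of a type and less RNA per cell cannot be told apart.

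In untreated neurons alone, Psap, the precursor of the saposins that help enzymes reach membrane lipids, had the highest mean level of the 42 genes, at 2651 ± 1322 CPM (SD, n = 4). Atp6v0c, the subunit of the proton-carrying ring, followed with 1032 ± 109 CPM and Atp6v1a, the catalytic A subunit, with 630.1 ± 96.9 CPM. Of the 11 highest genes 9 encoded pump subunits, and Ctsb, a cysteine protease, was the only other lysosomal gene among them, at 298 ± 144 CPM. The spreads of the genes below Atp6v1a in this order, from Atp6v1d (377 ± 88.7 CPM) to Atp6v1g2 (294 ± 105 CPM), overlapped. The lowest levels were those of Gusb, Tfeb and Cln3. Counts were thin for 8 of the genes (Gusb, Tfeb, Mcoln1, Cln3, Lipa, Asah1, Glb1 and Ctsz), each of which had no count in at least 1 library. A count of 0 allows a level of up to 0.220 to 0.473 CPM, depending on the library (3 counts, counting error only).

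In all, 6 pump subunits fell in the bulk RNA of co-cultures against that of neurons alone, and no lysosomal gene passed the same test in either direction. Averaged over fibril state, 8 co-cultures against 8 libraries of neurons alone, the genes that fell were Atp6v0c of the V0 sector and Atp6v1a, Atp6v1c1, Atp6v1d, Atp6v1e1 and Atp6v1g2 of the V1 sector. A gene was called when its p from the quasi-likelihood test of edgeR, adjusted by Benjamini and Hochberg over all 13139 genes, was under 0.05. By that rule 2.19% of all genes were called, and 0.974% were called lower. The pump genes had a median log2 fold change of -0.83, against -0.03 for all genes tested, and 16 of the 17 had a negative value. The 25 lysosomal genes had a median of -0.12, with 11 positive and 14 negative values. At an unadjusted p under 0.05 the comparison held 17 of the 42 genes, 13 of them pump genes with a negative change, against 16.5% of all genes. Lysosomal genes were called under other settings: DESeq2, which called 8.33% of all genes, called Psap lower and Gusb higher, scaling by library totals called Npc1 higher, and the fit without the untreated replicate 1 of neurons alone called Psap lower and Npc1 higher. Psap was also called lower without the untreated co-culture replicate 4.

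**Figure D2:**
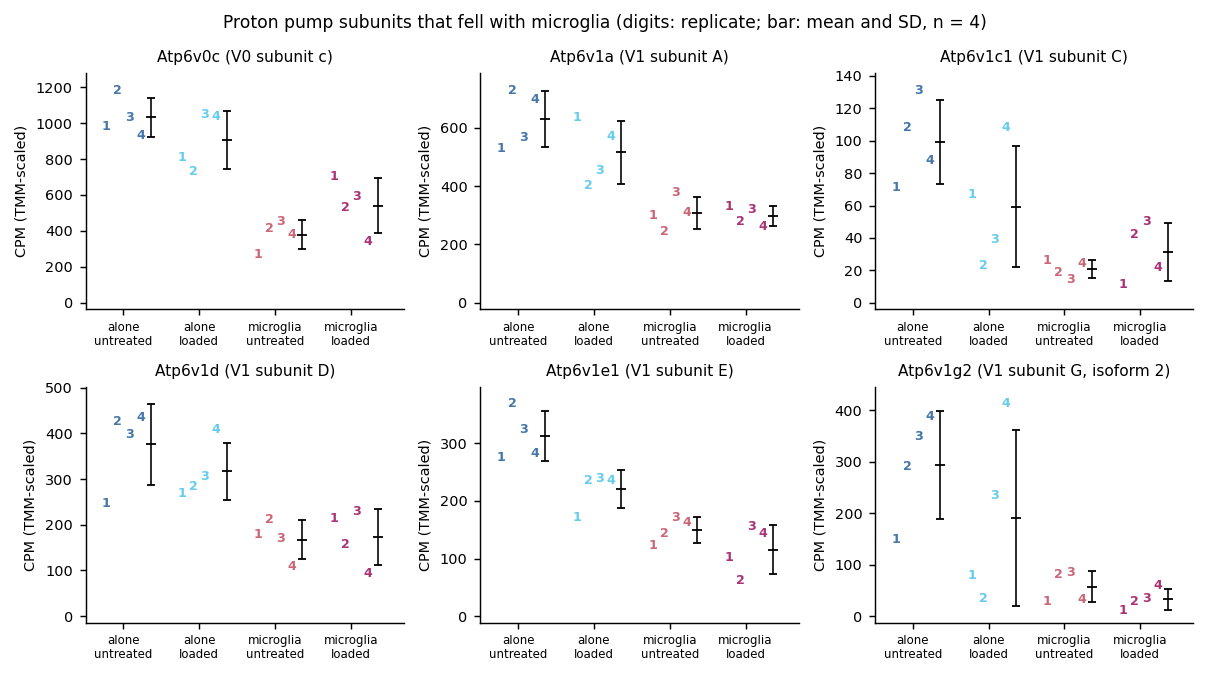
Levels of the 6 pump subunits that fell with microglia, as TMM-scaled CPM (vertical axes, each from 0) in the 4 groups. Digits are single libraries named by replicate, and bars are the mean and SD of 4 libraries. Every co-culture lies below every library of neurons alone for Atp6v0c, Atp6v1a and Atp6v1d.

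Among V0 genes, Atp6v0c (chr17:24163866-24169702, minus strand, mm10) had the lowest adjusted p of the 42 genes. Its level was 982, 1183, 1032 and 931 CPM in replicates 1 to 4 of untreated neurons alone and 808, 729.5, 1047 and 1038 CPM in loaded neurons alone. In co-culture it was 266, 413, 455 and 378 CPM in untreated and 701, 529, 593 and 341 CPM in loaded neurons. All 8 co-cultures lay below all 8 libraries of neurons alone, which was true of 0.221% of the genes tested. The log2 fold change was -1.10 ± 0.19 (SE, adjusted p = 0.00396, edgeR). A pseudogene of this gene, Atp6v0c-ps2, had 28 to 965 counts in neurons alone, 11, 12, 239 and 1287 in untreated co-cultures and 11 to 23 in loaded co-cultures. It was thus lower than in all neurons alone in 6 of the 8 co-cultures. The counts of Atp6v0c, from 2927 to 12685, may have been split between the copies and are uncertain to that extent.

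The other V0 genes did not pass the test. Atp6v0a1, the a subunit beside the proton path, was at 318 ± 118 CPM alone and 164 ± 38.9 CPM in co-culture (SD, n = 8), a log2 difference of -0.96 ± 0.26 (adjusted p = 0.0527, edgeR), and it was called lower by DESeq2 and with no filter on low counts. Atp6v0b, a ring subunit, differed by -0.63 ± 0.24 (adjusted p = 0.186), and Atp6v0d1, which joins the ring to the stalk, was at 48 to 124 CPM alone and 13.1 to 108 CPM in co-culture, with overlapping ranges. Atp6v0e was the one pump gene whose difference was positive, at 0.75 ± 0.39 (adjusted p = 0.348), with 74.2 ± 52.6 CPM alone and 119 ± 28.3 CPM in co-culture. Atp6v0e, which was not called, and Atp6v1a both held TCACGTGA in the promoters printed above. The part of these letters in either difference was not tested.

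All 9 V1 genes had a negative difference with microglia, from -2.45 to -0.55 with a median of -0.91, and 5 of them fell. Atp6v1a, the subunit that splits ATP (chr16:44085402-44139705, minus strand), measured 530.2, 728, 565 and 697 CPM in untreated and 636, 402, 453 and 570.3 CPM in loaded neurons alone. With microglia it measured 298, 246, 379 and 308 CPM and 330.1, 277, 319 and 260.4 CPM, so that the 2 kinds of culture did not overlap. The log2 fold change was -0.91 ± 0.18 (adjusted p = 0.0105, edgeR).

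Atp6v1d (chr12:78840725-78861638, minus strand), part of the central stalk that turns inside V1, stood at 246, 427, 399 and 435 CPM in untreated neurons alone and 269, 284, 306 and 408 CPM in loaded ones. Co-cultures held 179, 211, 169.7 and 108 CPM untreated and 213, 156, 229 and 93.5 CPM loaded. These ranges were separate too, and the change was -1.02 ± 0.23 (adjusted p = 0.0175, edgeR).

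Atp6v1e1 (chr6:120794305-120822793, minus strand) belongs to the outer stalk that holds V1 still against V0. It was at 276, 369, 324 and 283 CPM in untreated and 171, 236, 238 and 235 CPM in loaded neurons alone. In the co-cultures it was at 122, 143, 171 and 162 CPM and 101, 62.6, 155 and 144 CPM. Its lowest library of neurons alone met its highest co-culture, both near 171 CPM, and it fell by 1.00 on the log2 scale (SE 0.22, adjusted p = 0.0141, edgeR). The gene overlaps Slc25a18 on the other strand, and whether the authors' counting used strand is not given in the sources used here.

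Atp6v1c1 (chr15:38661933-38692446, plus strand), the C subunit, which takes part in the joining and parting of V1 and V0, was the least abundant of the 6. Neurons alone held 70.9, 108, 131 and 87.6 CPM untreated and 66.8, 22.9, 39 and 108 CPM loaded, while the co-cultures held 26.3, 18.6, 14.6 and 24.4 CPM and 11.4, 42, 50.5 and 22.1 CPM. Loaded neurons alone reached into the co-culture range in replicates 2 and 3. The change was -1.58 ± 0.37 (adjusted p = 0.026, edgeR), and the call was lost without the untreated replicates 2 or 3 of neurons alone, the loaded replicate 4 of neurons alone, or the untreated co-culture replicates 2 or 3, with log2 fold changes from -1.55 to -1.34 and adjusted p-values from 0.0504 to 0.0674.

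Atp6v1g2 (chr17:35233660-35238767, plus strand), the G isoform rich in neurons, had the largest decrease of the 6. It measured 148, 292, 349 and 387 CPM in untreated neurons alone but 78.4, 35.2, 235 and 413 CPM in loaded neurons alone, where replicates 1 and 2 were as low as co-cultures. With microglia it measured 28.9, 80.4, 85 and 32.8 CPM untreated and 10.9, 27.7, 34.1 and 59.4 CPM loaded. The log2 fold change was -2.45 ± 0.47 (adjusted p = 0.0109, edgeR). This gene overlaps Nfkbil1 on the other strand, so the same limit on strand holds.

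The remaining 4 V1 genes did not pass. Atp6v1b2, the B subunit that pairs with A, differed by -0.85 ± 0.35 (adjusted p = 0.222) and Atp6v1h, a regulatory subunit, by -0.83 ± 0.44 (adjusted p = 0.354). Atp6v1f, the F subunit of the central stalk, differed by -0.55 ± 0.24 (adjusted p = 0.254), and Atp6v1g1, the widely expressed G isoform, by -0.61 ± 0.23 (adjusted p = 0.167, edgeR). The accessory genes Atp6ap1, which takes part in assembly of the pump, and Atp6ap2, the renin receptor, differed by -0.69 ± 0.26 (adjusted p = 0.167) and -0.66 ± 0.32 (adjusted p = 0.296).

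**Figure D3:**
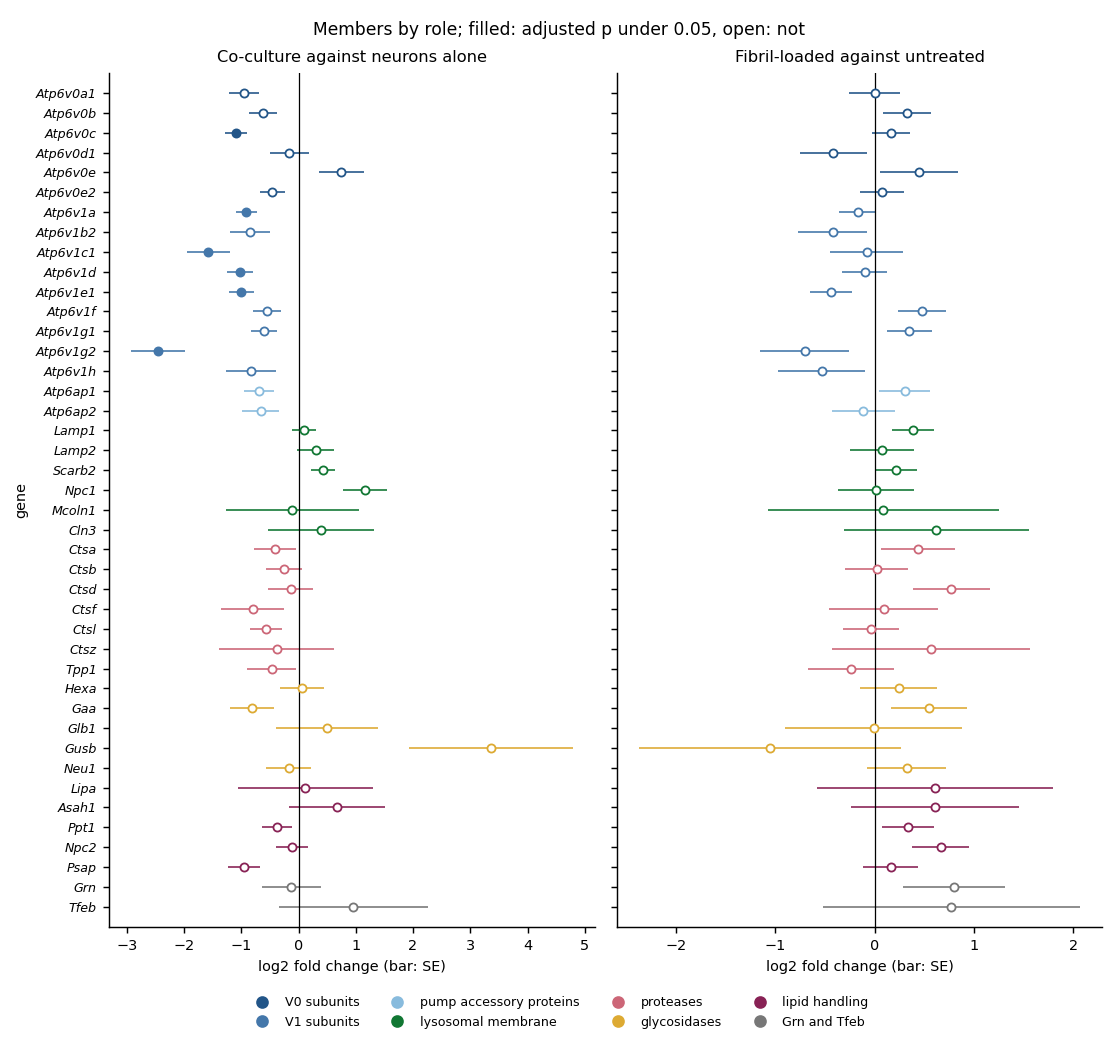
Log2 fold change of each of the 42 genes (rows) in co-cultures against neurons alone (left) and in fibril-loaded against untreated neurons (right), each averaged over the other factor. Points are edgeR estimates, bars are SE, colours are roles, and filled points passed an adjusted p of 0.05. The 6 filled points are pump subunits on the negative side of the left panel, and the right panel has none.

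Split by fibril state, the difference in Atp6v0c was -1.45 ± 0.28 in untreated neurons (adjusted p = 0.0407, edgeR) and -0.74 ± 0.27 in loaded neurons (adjusted p = 0.306). It was the 1 gene of the 42 called in untreated neurons, where 0.122% of all genes were called. Its call there was lost when the untreated replicates 2, 3 or 4 of neurons alone, the untreated co-culture replicates 1, 2 or 4 or the loaded co-culture replicates 2 or 3 were left out singly, with log2 differences from -1.55 to -1.31 and adjusted p-values from 0.0216 to 0.190 over the 16 omissions. It was lost as well without replicate 1 of both co-culture groups (-1.30 ± 0.29, adjusted p = 0.145) and with the 2 untreated groups fitted by themselves (-1.41 ± 0.26, adjusted p = 0.0744). These fits called 0 and 1 of all genes tested. In loaded neurons edgeR called 0 of the 42, where 0.114% of all genes were called, while 11 had an unadjusted p under 0.05 (11.7% of all genes did) and DESeq2 called 3 (3.74% of all genes). In untreated neurons 11 had an unadjusted p under 0.05, against 9.1% of all genes, and DESeq2 called 6 (2.25% of all genes). Of the pump genes, 16 of 17 had a negative difference in either state, with medians of -1.03 in untreated and -0.74 in loaded neurons. The comparisons in the 2 fibril states use different libraries, and the average over them uses all.

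The summed level of the 17 pump genes was 3864, 5982, 5127 and 5231 CPM in untreated neurons alone and 3956, 3883, 4970.4 and 5547 CPM in loaded neurons alone. In co-culture it was 2349, 2500.3, 2864 and 2469.8 CPM in untreated and 3173, 2787, 3094 and 2218 CPM in loaded neurons. No co-culture reached the lowest library of neurons alone, which is a description and was not tested. Of the 17 genes, 16 had their highest level of the 16 libraries in a library of neurons alone, 8 of them in the untreated replicate 2, and 16 had their lowest in a co-culture. These counts were not made over all genes tested, so how unusual they are is not known.

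Markers of several cell types moved alongside the pump genes. Of the 12 neuronal markers 11 had a negative difference in co-culture, with a median log2 fold change of -1.88, and Thy1, Tubb3 and Eno2 fell (adjusted p = 0.000152, 0.0132 and 0.0192, edgeR). Of the 13 oligodendrocyte lineage markers 12 were higher, 10 of them called, with a median of 1.82. Of the 10 astrocyte markers 9 were lower, none called, with a median of -1.0, and the 11 microglial markers that could be tested were all higher, none called. In loaded neurons alone, replicates 1 and 2 had neuronal marker sums of 1851 and 1539 CPM, inside the co-culture range, while their pump sums of 3956 and 3883 CPM stayed above all co-cultures. Pump CPM per neuronal marker CPM was 1.2, 0.851, 0.811 and 0.695 in untreated neurons alone and 2.14, 2.52, 1.34 and 0.733 in loaded neurons alone. It was 1.8, 0.94, 0.953 and 2.08 in untreated and 2.23, 2.1, 1.48 and 1.19 in loaded co-cultures, so this ratio overlapped between the kinds of culture. The part of the markers in the fall of the pump genes was not tested. Without replicate 1 of both co-culture groups, the 2 libraries rich in microglial markers, 4 of the 6 subunits were called, and Atp6v1c1 (-1.50 ± 0.37, adjusted p = 0.0515) and Atp6v1e1 (-0.92 ± 0.24, adjusted p = 0.0627) were not. In that fit 1.12% of all genes were called.

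**Figure D4:**
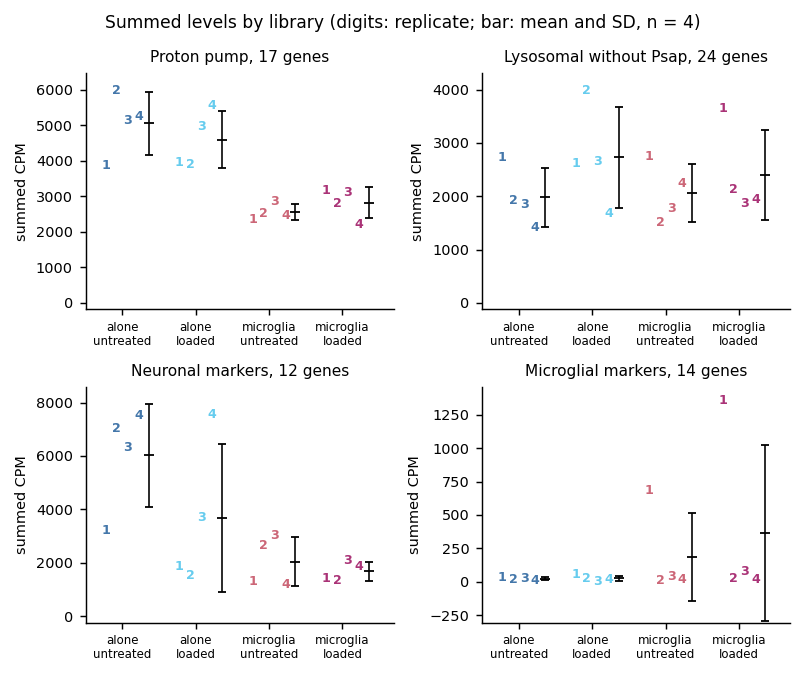
Summed TMM-scaled CPM (vertical axes) of the 17 pump genes, the 24 lysosomal genes other than Psap, the 12 neuronal markers and the 14 microglial markers, in the 4 groups. Digits are single libraries named by replicate, bars are the mean and SD of 4 libraries, and a bar may reach below 0 where 1 library stands far above the rest. Pump sums of the co-cultures, 2218 to 3173 CPM, lie below those of neurons alone, 3864 to 5982 CPM, whereas lysosomal sums overlap.

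For 2 subunits the table holds a widely expressed isoform and one rich in neurons, and their log2 ratio was computed in each library. The ratio of Atp6v1g2 to Atp6v1g1 was -0.27, 0.48, 1.11 and 1.72 in untreated neurons alone and -1.81, -0.87, -0.55 and -1.74 in untreated co-cultures. These 2 groups did not overlap, and the difference of -2.0 had an exact two-sided permutation p of 0.0286, the smallest that 4 against 4 allows, which became 0.229 after adjustment over 8 such tests. Loaded neurons gave -2.11, -2.97, 0.55 and 1.32 alone and -3.92, -2.45, -2.11 and -0.62 in co-culture, a difference of -1.47 (exact permutation p = 0.286, adjusted p = 0.381). In geometric means the neuronal isoform stood at 1.69 times the common one in untreated neurons alone and at 0.423 times in untreated co-cultures.

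The ratio of Atp6v0e2 to Atp6v0e was 0.26, 3.95, 1.80 and 4.20 in untreated neurons alone and 0.76, 0.78, 0.83 and -0.07 in untreated co-cultures, which overlapped. The difference was -1.98 (exact permutation p = 0.114, adjusted p = 0.381). Atp6v0e itself was at 122, 24.3, 46.8 and 14.3 CPM in untreated and 112, 141, 112 and 20.7 CPM in loaded neurons alone, and at 119, 88.7, 96 and 172 CPM in untreated and 144, 125, 109.6 and 95.5 CPM in loaded co-cultures. It was low in 3 of the 4 untreated libraries of neurons alone and in replicate 4 of the loaded ones. Atp6v0e2 was at 145, 379, 163 and 267 CPM in untreated and 207, 201, 276 and 312 CPM in loaded neurons alone, and at 202, 153, 171 and 164 CPM in untreated and 202, 139, 209.7 and 179 CPM in loaded co-cultures, a log2 difference with microglia of -0.46 ± 0.22 (adjusted p = 0.308, edgeR). With fibrils none of the 4 differences in ratio passed the adjusted threshold, and the smallest exact permutation p was 0.171, for Atp6v1g2 to Atp6v1g1 in co-culture (difference -1.03).

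Of the 6 lysosomal membrane genes 5 had a positive difference with microglia, none called, with a median of 0.34. Npc1, which moves cholesterol out of the lysosome, was at 95.9, 21.3, 26.7 and 27 CPM in untreated and 45.6, 45.7, 8.62 and 52.9 CPM in loaded neurons alone. With microglia it was at 119, 74.3, 42.3 and 104 CPM and 131, 101, 73.3 and 81.5 CPM. The co-cultures were higher on average but overlapped with single libraries of neurons alone, and the difference of 1.16 ± 0.39 did not pass (unadjusted p = 0.00624, adjusted p = 0.114, edgeR). Scaled by library totals, which moved the median of all genes from -0.03 to 0.18, it was 1.39 ± 0.38 and was called (adjusted p = 0.0427). Npc1, Psap and the other lysosomal genes that follow here without a call were singled out after their values were seen. Lamp1, a main glycoprotein of the lysosomal membrane, differed by 0.10 ± 0.21 (adjusted p = 0.912). Scarb2, the receptor that carries glucocerebrosidase to lysosomes, was at 170.2 ± 41.3 CPM alone and 232 ± 56.3 CPM in co-culture (SD, n = 8), and Lamp2 at 77.9 ± 42.1 and 94.8 ± 35.9 CPM. Mcoln1, a calcium channel of the lysosome, and Cln3 stayed at or below 31.7 CPM in every library.

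**Figure D5:**
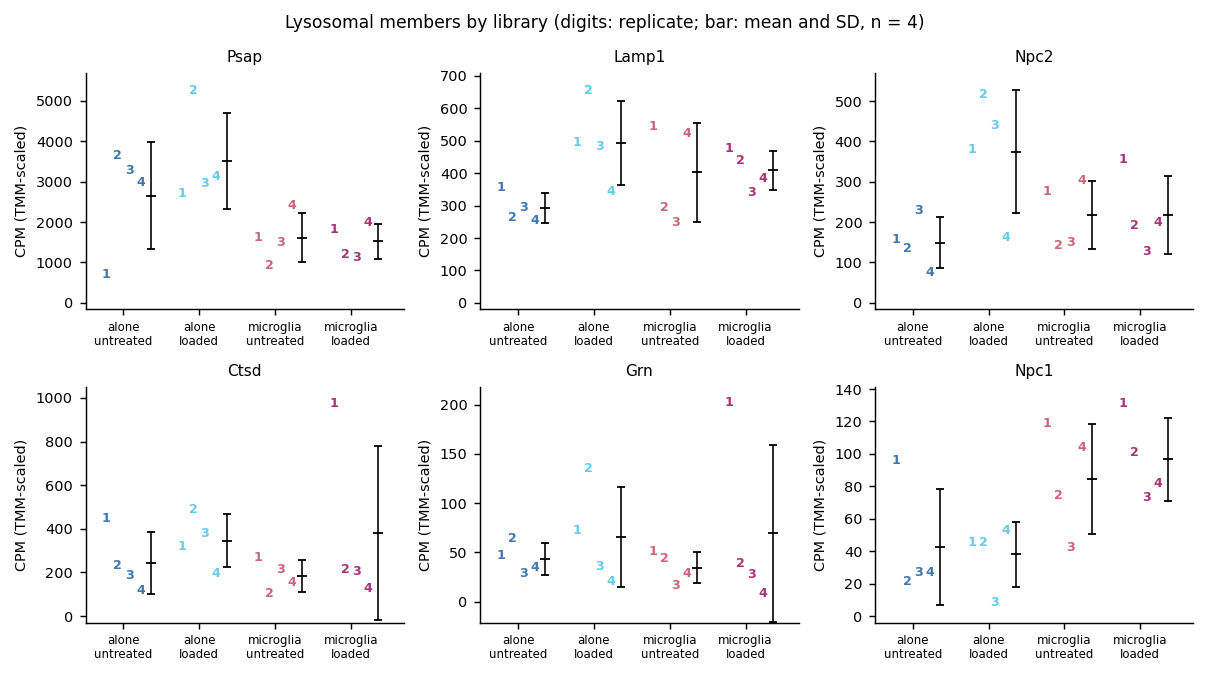
Levels of Psap, Lamp1, Npc2, Ctsd, Grn and Npc1, as TMM-scaled CPM (vertical axes) in the 4 groups. Digits are single libraries named by replicate, and bars are the mean and SD of 4 libraries. The loaded co-culture replicate 1 stands far above the other 3 for Ctsd (974 CPM) and Grn (202 CPM).

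All 7 protease genes had a negative difference with microglia, with a median of -0.41, and none had an unadjusted p under 0.05. Ctsb was at 316 ± 122 CPM alone and 265 ± 150.0 CPM in co-culture, and Ctsl, another cysteine protease, at 180.0 ± 66.2 and 121 ± 46 CPM. Ctsd, the main aspartic protease of lysosomes, differed by -0.14 ± 0.39 (adjusted p = 0.938, edgeR). Tpp1, which trims tripeptides, ranged from 20.2 to 237 CPM alone and from 45.4 to 145 CPM in co-culture. The remaining proteases were scarcer, with 26.6 to 109 CPM alone and 28.5 to 93.7 CPM in co-culture for Ctsa, 6.31 to 56.9 and 2.86 to 41.1 CPM for Ctsf and 0 to 75.6 and 0.168 to 74.9 CPM for Ctsz. The glycosidase genes had 3 positive and 2 negative differences. Among them Gusb, β-glucuronidase, was at 0.234, 8.43, 0 and 0 CPM in untreated and 0.87, 0, 0.137 and 1.53 CPM in loaded neurons alone. It was at 25.9, 14.5, 8.29 and 6.75 CPM in untreated and 4.89, 21.4, 4.11 and 12.6 CPM in loaded co-cultures. The ranges overlapped at very low counts and the gene was not called (unadjusted p = 0.0279, adjusted p = 0.235). Gaa, the enzyme that digests lysosomal glycogen, was at 94.6 ± 55 CPM alone and 52.6 ± 27.1 CPM in co-culture, with a difference of -0.81 ± 0.39 (adjusted p = 0.293). Hexa, Neu1 and Glb1, which take sugars off gangliosides and glycoproteins, ranged over 18.2 to 95.4, 19 to 133 and 0 to 30.2 CPM alone and over 24.8 to 68.8, 16.4 to 86 and 0.0754 to 39.4 CPM in co-culture, all overlapping.

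Among genes of lipid handling, Psap was at 711, 3645, 3271 and 2977 CPM in untreated and 2696, 5264, 2955 and 3139 CPM in loaded neurons alone. Co-cultures held 1613, 927, 1505 and 2415 CPM untreated and 1807, 1199, 1124 and 1984 CPM loaded. The untreated replicate 1 of neurons alone was the lowest of all 16 libraries, and the difference of -0.96 ± 0.28 did not pass (adjusted p = 0.0713, edgeR). Because Psap made up much of the sum over lysosomal genes, that sum is given with and without it. With Psap it was 4629 ± 931 CPM in untreated neurons alone, 6249 ± 2029 in loaded neurons alone, 3682 ± 1016 in untreated co-cultures and 3919 ± 1093 in loaded co-cultures (SD, n = 4). Without Psap it was 1978 ± 546, 2735 ± 948, 2067 ± 541 and 2391 ± 845 CPM in the same order, and the groups overlapped in both sums. Asah1, acid ceramidase, was at 11.1 ± 4.7, 10.2 ± 10.7 and 10.7 ± 6.49 CPM in the first 3 groups and at 34.1, 24.3, 22.7 and 26.8 CPM in the loaded co-cultures, a difference with microglia of 1.40 ± 1.21 in loaded neurons (adjusted p = 0.787). Ppt1, which removes palmitate from proteins, and Lipa, which splits cholesteryl esters, differed with microglia by -0.38 ± 0.26 (adjusted p = 0.508) and 0.12 ± 1.18 (adjusted p = 0.989).

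Tfeb, the factor named above for its binding to the E-box, was low and uneven. Its level was 17.6, 4.04, 0 and 0 CPM in untreated and 25.6, 11.2, 1.64 and 9.69 CPM in loaded neurons alone. In co-culture it was 0, 4.37, 13.8 and 36.5 CPM untreated and 47.2, 9.67, 0 and 14.9 CPM loaded. It had no count in 4 libraries, and the difference with microglia was 0.96 ± 1.30 (adjusted p = 0.815, edgeR). Its counts ranged from 0 to 319 within the untreated co-cultures alone. Grn, whose protein progranulin is cut into granulins in lysosomes, was at 47.2, 64.6, 28 and 34.5 CPM in untreated and 72, 135, 35.6 and 20.6 CPM in loaded neurons alone, and at 50.7, 43.3, 16.1 and 28.4 CPM in untreated and 202, 39.1, 27.6 and 8.13 CPM in loaded co-cultures. The loaded co-culture replicate 1, the richest in microglial markers, held the highest level of all 16 libraries for Npc1, Ctsd, Lipa, Asah1, Grn and Tfeb, and the untreated co-culture replicate 1 held it for Ctsb and Gusb. The loaded replicate 2 of neurons alone held it for 9 further lysosomal genes, among them Lamp1, Npc2 and Psap. How many of all genes tested had their highest level in each of these libraries was not counted, so how unusual this is is not known. The part of microglial RNA in these levels was not tested.

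No pump or lysosomal gene was called with fibrils. In neurons alone, in co-culture, averaged over both and in the interaction, edgeR called 0 of the 42 genes and 0% of all genes. DESeq2 also called 0 of the 42 in each, while it called 1.32% of all genes in neurons alone, 0.989% in co-culture, 1.96% in the average and 1.42% in the interaction. At an unadjusted p under 0.05 there were 2 of the 42 in neurons alone (6.92% of all genes), 0 in co-culture (3.68%), 1 in the average (6.62%) and 1 in the interaction (4.03%). Averaged over culture, 21 of the 25 lysosomal genes had a positive difference, with a median of 0.32, against -0.05 for all genes tested. The median was 0.13 without the loaded replicate 2 of neurons alone and 0.14 without the loaded co-culture replicate 1, with 17 and 18 of 25 positive, and the split was 16 of 25 without the untreated replicate 3 of neurons alone. The 17 pump genes had 7 positive and 10 negative differences with a median of -0.08. Neuronal markers were lower with fibrils for 11 of 12 genes, with a median of -0.84, none called, and in neurons alone all 10 astrocyte markers had a positive difference, with a median of 0.65, none called. Averaged over culture, 11 of 13 oligodendrocyte lineage markers (median 0.66) and 10 of 11 microglial markers (median 1.25) had a positive difference, none called. The part of these markers in the values that follow was not tested.

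Npc2, the soluble partner of Npc1 in cholesterol export, had the smallest unadjusted p of the 42 with fibrils. Neurons alone held 158, 135, 228 and 76 CPM untreated and 381, 516, 439 and 161 CPM loaded, where 3 of the 4 loaded libraries were above all untreated ones. The log2 difference was 1.33 ± 0.41 (unadjusted p = 0.00363, adjusted p = 0.627, edgeR). In co-culture the gene was at 276, 142, 149 and 304 CPM untreated and 355, 191, 128 and 199 CPM loaded, with no separation and a difference of 0.00 ± 0.40. The test of the difference between these 2 effects gave -1.32 ± 0.57 (unadjusted p = 0.03, adjusted p = 1), so a different response in co-culture was not shown.

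Lamp1 was at 355, 262, 295 and 255 CPM in untreated neurons alone and 493, 656, 481 and 342 CPM in loaded ones. The lowest loaded library lay within the untreated range, and the difference was 0.76 ± 0.30 (unadjusted p = 0.0191, adjusted p = 0.695, edgeR). In co-culture it was at 544, 294, 248 and 523 CPM untreated and 477, 438, 340.2 and 383 CPM loaded, a difference of 0.02 ± 0.30. Lamp1 is the gene with 4 E-boxes in the promoter printed above. It overlaps Grtp1 on the other strand.

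Ctsd was at 445, 231, 185 and 118 CPM in untreated and 320.0, 490.4, 379.7 and 195 CPM in loaded neurons alone, with a difference of 0.50 ± 0.55. In co-culture it was at 267, 102, 213 and 154 CPM untreated and 974, 213, 204 and 129 CPM loaded. The difference there, 1.04 ± 0.55 (unadjusted p = 0.0746, adjusted p = 1, edgeR), rested on the loaded replicate 1, without which it was -0.031. For Grn the difference in co-culture was 1.00, and it was -0.24 without replicate 1 of both co-culture groups.

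Among pump genes under fibrils, Atp6v1f was at 235, 373, 286 and 313 CPM in untreated and 320.3, 456, 608 and 451 CPM in loaded neurons alone. In co-culture it was at 279.8, 179.6, 155 and 287 CPM untreated and 447, 359, 195 and 149.8 CPM loaded. The difference averaged over culture was 0.48 ± 0.24 (adjusted p = 0.757, edgeR). Atp6v1e1, whose libraries were given above, had an average of -0.44 ± 0.21 (adjusted p = 0.749), with loaded neurons alone all below untreated neurons alone. Its loaded and untreated co-cultures overlapped. How many of all genes tested were separated in this way in neurons alone was not counted, so how unusual it is is not known. Atp6v1g1 was at 179, 209, 162 and 118 CPM in untreated and 339, 277, 161 and 165 CPM in loaded neurons alone, and at 102, 147, 124 and 110.5 CPM in untreated and 167, 152, 147 and 91.5 CPM in loaded co-cultures, an average difference of 0.35 ± 0.23 (adjusted p = 0.856). The interaction of fibrils and microglia was 0.71 ± 0.38 for Atp6v0c and 1.33 ± 0.73 for Atp6v1c1, neither called (adjusted p = 1 and 1).

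Other genes of the pathway, from lists that hold none of the 42, were counted in the same way. Of 14 further pump and assembly genes that could be tested, 6 had a positive and 8 a negative difference with microglia, with a median of -0.19 and none called. Among 26 further lysosomal hydrolases 11 differences were positive and 15 negative, with a median of -0.28, and 1 was called: Smpd1, acid sphingomyelinase, fell by 0.95 on the log2 scale (SE 0.25, adjusted p = 0.0417, edgeR). The 19 further lysosomal membrane genes had 10 positive and 9 negative differences, none called. These lists include Ctss and Laptm5, which also serve as microglial markers. For 20 genes of lysosomal delivery, TFEB relatives and the mTORC1 pathway, 5 were positive and 15 negative, with a median of -0.17 and none called. With fibrils none of the genes in these lists was called.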

How the data were processed

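Raw gene counts deposited by the authors for 16 libraries were used as deposited. Libraries were made with the QuantSeq 3′ forward kit, per the labels' protocols, and STAR, Partek and DESeq2 were used with build mm10, per the submitters' processing notes. Tool versions, annotation, strand setting and any use of molecular identifiers are not given in the sources used here. Samples were grouped by their titles. Counts were tested in edgeR 4.0.16 (R 4.3.3) with filterByExpr (minimum count 10, minimum total 15), TMM scaling, 1 mean per group over all 16 libraries, glmQLFit with robust estimation and glmQLFTest. Log2 ratios used a prior count of 2 and exact permutation tests in scipy 1.17.1. Alternatives were other scalings, filters, DESeq2 1.42.0, fewer libraries and a block. The edgeR test of the microglia average was also run on simulated data. How often known changes were recovered there is not given here. Positions came from GENCODE M21, promoters from RefSeq. Libraries of a group differed beyond sampling noise, so none was counted as a duplicate. Members and lists were chosen with earlier results of these data known. Values in every library are given for called genes, the 5 lowest p-values in each averaged comparison, isoform pairs and Atp6v0c, Lamp1, Ctsd and Tfeb.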

Additional observations from a re-analysis of the deposited data

Results flagged for a closer look

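For 14 named genes and for the pump and lysosomal sums, 64 groups of 4 libraries were checked for a library standing apart. In 2 groups one was found, which is fewer than the 1 in 20 that chance gives. Atp6v1e1 was at 171 CPM in replicate 1 of loaded neurons alone, against 235 to 238 CPM in the other 3, and the gap was 0.953 of the group's range. That library also had the second lowest neuronal marker sum of its group, 1851 CPM. Replicate 2 of loaded neurons alone had a lower sum still, 1539 CPM, with Atp6v1e1 at 236 CPM. Ctsd was at 974 CPM in replicate 1 of loaded co-cultures, against 129 to 213 CPM in the other 3, a gap of 0.901 of the range, and that library had the highest microglial marker sum of the 16, 1353 CPM. The part of these markers in either value was not tested.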

How the results depend on the processing

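With microglia averaged over fibril state, the count of members called was 6 (2.19% of all genes called). It lay between 4 and 9 over the other settings tried (1.12% to 8.33%). When each library was left out in turn it lay between 5 and 9 (1.16% to 2.45%), with 9 without the untreated replicate 1 of neurons alone (2.45%). DESeq2 called 9 members and 1094 of all genes, against 6 and 288 with edgeR. Scaling by library totals called 7 members (3.21% of all genes called). It moved the median of all genes from -0.03 to 0.18, and the lysosomal split from 11 to 16 positive values, while 15 of 17 pump genes stayed negative. In untreated neurons the count of 1 (0.122% of all genes called) became 6 with DESeq2 (2.25%), 0 without replicate 1 of both co-culture groups (0%), 0 with the 2 groups fitted by themselves (0.00848%), and 0 to 1 when each library was left out (0% to 0.287%). In loaded neurons the count of 0 (0.114%) became 3 with DESeq2 (3.74%). Replicate numbers follow runs of neighbouring library codes. Deviations of libraries with the same number had correlations from -0.111 to 0.217. Set against the libraries of the other groups only, 9 of 16 libraries correlated best with one of their own number. The count that chance would give was not worked out. Whether a number stands for a shared preparation or run was not tested. The main fit did not use the numbers, so any such pairing was left out of it. With the replicate block, members called in loaded neurons were 1 (Atp6v1g2, 0.32% of all genes called) and in the average 7, with Npc1 added as higher (2.79%). The fibril difference of Npc2 in co-culture, near 0, was -0.0908 with library totals, -0.0052 without a filter, -0.059 with the replicate block, -0.21 without replicate 1 of both co-culture groups and -0.0053 with the 2 groups by themselves, and that of Lamp1 was -0.059 with library totals. When each library was left out, these and other values changed sign. In co-culture with fibrils the ranges were Npc2 from -0.35 to 0.21, Lamp1 from -0.15 to 0.20, Ctsd from -0.031 to 1.33 and the log2 ratio of Atp6v0e2 to Atp6v0e from -0.17 to 0.20. The median of the lysosomal genes ran from -0.11 to 0.37 with fibrils in co-culture, from -0.011 to 0.62 with fibrils in neurons alone, from -0.32 to 0.15 with microglia averaged, from -0.26 to 0.22 with microglia on untreated and from -0.44 to 0.15 with microglia on loaded neurons, and from -0.53 to 0.022 in the interaction, and that of the pump genes from -0.17 to 0.061 with fibrils averaged and from -0.044 to 0.32 in the interaction. In all edgeR alternatives these medians moved by less than the SD of the list mean between libraries of a group. That SD was 0.244 on the log2 scale for pump and 0.517 for lysosomal genes. Every lysosomal median was itself smaller in size than 0.517. The pump medians with fibrils averaged (-0.08), with fibrils in co-culture (0.07) and in the interaction (0.13) were smaller in size than 0.244. For all of these a change of sign could pass this rule, and stability was not shown. The causes were not tested. With fibrils DESeq2 called 257 of all genes in the average and edgeR 0.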
